A study of Mus musculus with 8 samples.

Results

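The genes described here encode the machinery of mitosis: the kinases and cyclins that start it, the spindle and its checkpoint, the kinetochores, the condensed chromosomes and the ring that divides the cell. The set was a fixed list of 56 gene symbols, compared between the ileum of wild-type mice and of mice lacking Slc51a. Of the 56 genes, 54 were measured by a probe set with exactly 1 gene symbol, out of 17097 genes measured in this way. Where a gene had several such probe sets, the brightest over all 8 arrays stood for it. Ccnb1 and Nuf2 had none under a single symbol and were not analysed here.

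Total RNA came from the ileum of 4 wild-type male mice and 4 male mice with Slc51a knocked out, all on a C57BL/6 background, about 2 months old and fasted for 4 h before they were killed under ketamine-xylazine anaesthesia. Slc51a encodes a subunit of the transporter that exports bile acids from the enterocyte across its basolateral membrane, and the labels do not limit its inactivation to the intestine. One Affymetrix array was hybridised per sample, and its normalised signals are on a log2 scale, on which 1 unit is a 2-fold change. The labels call the samples biological replicates and give no litter, cage or array batch.

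In the adult intestine nearly all cell division takes place in the crypts, where stem cells and their transit-amplifying daughters divide before they differentiate and move onto the villus. Dividing lymphocytes in Peyer's patches and in the mucosa also carry mitotic transcripts. Most mitotic genes are transcribed late in the cell cycle, when the MuvB core bound to B-Myb and FOXM1 activates them, whereas in resting cells the DREAM complex, built on the same core, keeps them silent. Many of their promoters carry a cell cycle homology region, through which MuvB binds, next to CCAAT boxes bound by the factor NF-Y. In a whole-tissue extract, more dividing cells and more of these transcripts per dividing cell cannot be told apart.

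Many promoters of the mitotic genes, but not all, held the letters of these elements. RefSeq promoter windows of mouse assembly GRCm38.p6, covering 250 bases before to 50 bases after the transcript start, were at hand for 47 of the 56 genes, and the first listed window of each was searched. The letters of the cell cycle homology region were TTTGAA, or TTCAAA on the other strand, and those of the NF-Y box CCAAT, or ATTGG on the other strand. The 100 bases before the start are shown for 5 genes that rose, as examples in which both elements lie upstream, and for 2 that did not pass the test, Bub3 with the elements and Pttg1 without them. The examples were chosen after the matches were seen, and capitals mark both elements.
Cdk1, chr10:69352913-69353012, minus strand: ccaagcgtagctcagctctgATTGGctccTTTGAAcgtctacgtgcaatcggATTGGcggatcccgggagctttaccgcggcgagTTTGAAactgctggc
Cdc20, chr4:118437344-118437443, minus strand: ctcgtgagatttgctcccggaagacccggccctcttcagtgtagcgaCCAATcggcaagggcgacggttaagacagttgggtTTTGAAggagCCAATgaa
Ube2c, chr2:164769829-164769928, plus strand: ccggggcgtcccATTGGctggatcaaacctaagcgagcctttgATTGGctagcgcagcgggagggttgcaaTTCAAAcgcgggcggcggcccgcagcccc
Kif22, chr7:127042421-127042520, minus strand: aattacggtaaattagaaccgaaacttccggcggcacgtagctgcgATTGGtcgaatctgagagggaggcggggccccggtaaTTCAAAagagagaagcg
Top2a, chr11:99024190-99024289, minus strand: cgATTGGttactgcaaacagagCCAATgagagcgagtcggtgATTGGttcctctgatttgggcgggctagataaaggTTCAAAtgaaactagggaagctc
Bub3, chr7:131560270-131560369, plus strand: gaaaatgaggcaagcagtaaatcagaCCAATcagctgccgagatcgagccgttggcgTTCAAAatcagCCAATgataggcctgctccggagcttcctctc
Pttg1, chr11:43425982-43426081, minus strand: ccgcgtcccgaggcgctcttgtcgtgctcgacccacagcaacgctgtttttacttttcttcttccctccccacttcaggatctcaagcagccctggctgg

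The TTTGAA letters were in 31 of the 47 promoters, or 66.0%, against 13.1% of the promoters of 13560 other measured genes. A CCAAT letter run was in 34, or 72.3%, against 38.3%, and 20 promoters held more than 1, or 42.6% against 13.4%. Both elements were in 28 promoters, or 59.6%, against 5.14%. In 1 promoter the matches overlapped each other. The TTTGAA matches lay close to the start: 27 promoters, 57.4%, had one that began within 50 bases of it, a distance chosen after the positions were seen, against 3.16% of the others. A match of these letters is a description of the sequence, not a shown binding site.

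**Figure D1:**
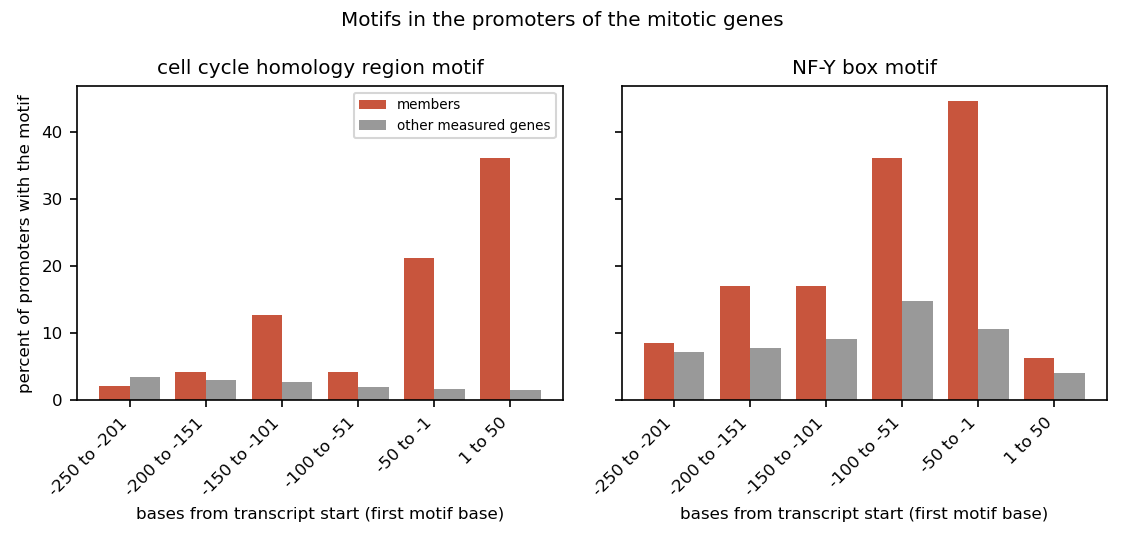
Share of promoters (percent, vertical axis) with a match in each stretch of the window (bases from the transcript start, horizontal axis), for the cell cycle homology region letters (left) and the NF-Y box letters (right), in 47 member promoters (red) and 13560 promoters of other measured genes (grey). The first element is most frequent in the 50 bases after the start, at 36.2% of member promoters, and the second in the 50 bases before it, at 44.7%.

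As a check of the labels, Slc51a lay between 11.29 and 11.41 in the wild-type arrays and between 4.50 and 4.68 in the knockout arrays. The arrays had medians of 4.56 to 4.60, and correlations over genes of 0.996 to 0.998 within a genotype and 0.985 to 0.990 between genotypes. The ileal markers Fabp6 and Slc10a2 and the epithelial markers Vil1, Epcam and Cdh17 were above the array-wide median, that of all probe set signals (4.58), in both genotypes. Knockout 4 stood apart for the mitotic genes, being the highest of the 8 arrays for 47 of 54. Spike-in hybridization controls averaged 8.83 to 9.15 in wild type and 8.74 to 9.02 in the knockout, and knockout 3, wild type 2 and knockout 4 had the lowest. The signal at the 3′ end of Gapdh minus that at its 5′ end, a measure of RNA integrity, was 0.18 to 0.34 in wild type and 0.06 to 0.21 in the knockout, and for Actb 0.38 to 0.47 and 0.42 to 0.47. Results with the spike-in controls as a covariate, and without the 3 arrays lowest in them, are given below. With the covariate 45 of the 54 mitotic genes were called higher, and without the 3 arrays 41. The part of the RNA integrity measures in the results was not tested.

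Mitotic genes were higher in the knockout almost throughout. Of the 54 measured, 48 rose, 0 fell and 6 did not pass the test, limma's at an adjusted p under 0.05. At an unadjusted p under 0.05, 51 were higher and 0 lower, against 3713 higher and 2937 lower among all 17097 genes. Over all 17097 genes tested, 17.1% rose and 12.9% fell. The balance over all genes moved with the scaling: 2924 were higher and 2210 lower as deposited, 2512 and 2640 with cyclic loess normalisation and 3315 and 1973 with median centring, while 46 and 50 of the mitotic genes rose under these and 0 fell. Among the 3937 genes whose mean level lay within the middle range of the members' levels, from their lower to their upper quartile, 31.4% rose. The rises were small: the median difference over the 54 genes was 0.46 on the log2 scale, a 1.38-fold change, against 0.01 over all genes. The genes that rose did so by 1.17-fold to 1.79-fold, and 10 of them by at least 1.5-fold, as did 2.05% of all genes. All 4 knockout arrays lay above all 4 wild-type arrays for 47 of the 54 genes and for 18.0% of all genes. Each difference given is knockout minus wild type on the log2 scale, from 4 arrays per genotype, and SE is its standard error. Levels are log2 signals, and the values of each genotype are listed in the order of replicates 1 to 4.

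**Figure D2:**
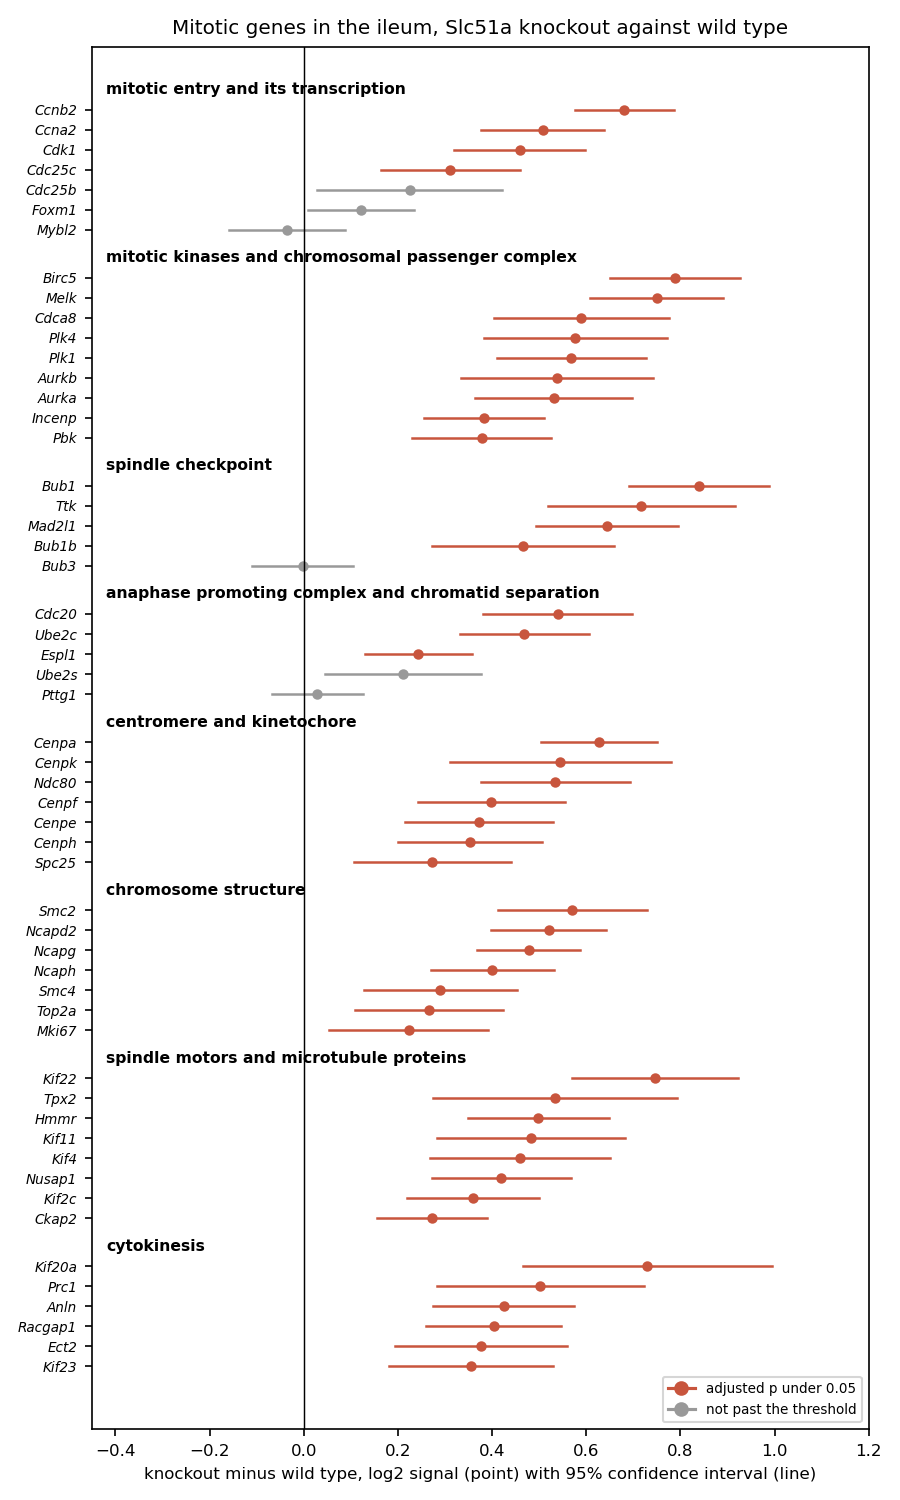
Knockout minus wild type (log2 signal, horizontal axis) for each of the 54 measured genes, grouped by role, with points for the estimate and lines for its 95% confidence interval, 4 arrays per genotype. Red marks the 48 genes past an adjusted p of 0.05 and grey the 6 that are not, and the estimates run from -0.04 for Mybl2 to 0.84 for Bub1.

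**Figure D3:**
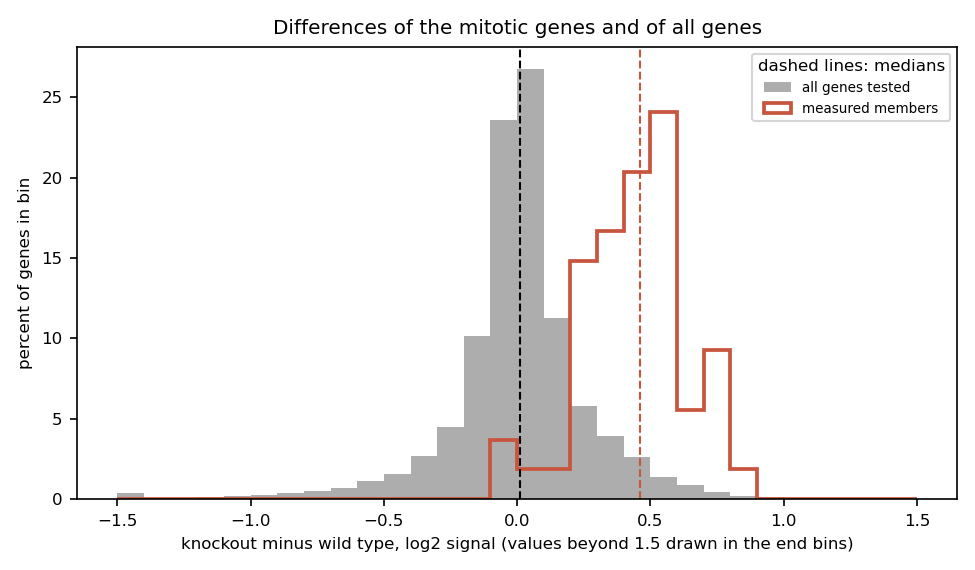
Percent of genes (vertical axis) by knockout minus wild type (log2 signal, horizontal axis) for all 17097 genes (grey) and the 54 mitotic genes (red outline), with dashed lines at the medians, 0.01 and 0.46. The mitotic genes sit to the right of most genes but within the range that the others cover.

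Knockout 4 had the highest mean over the 54 genes, 7.75, and the other knockout arrays were at 7.54, 7.53 and 7.57. The wild-type means were 7.20, 7.17, 7.08 and 7.17. The groups therefore did not overlap with or without knockout 4. Without it, 47 genes rose and 0 fell, with a median difference of 0.40. Single knockout arrays were above every wild-type array for 49, 50, 49 and 53 of the 54 genes. The same count was not made over all genes, so these counts are a description only.

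**Figure D4:**
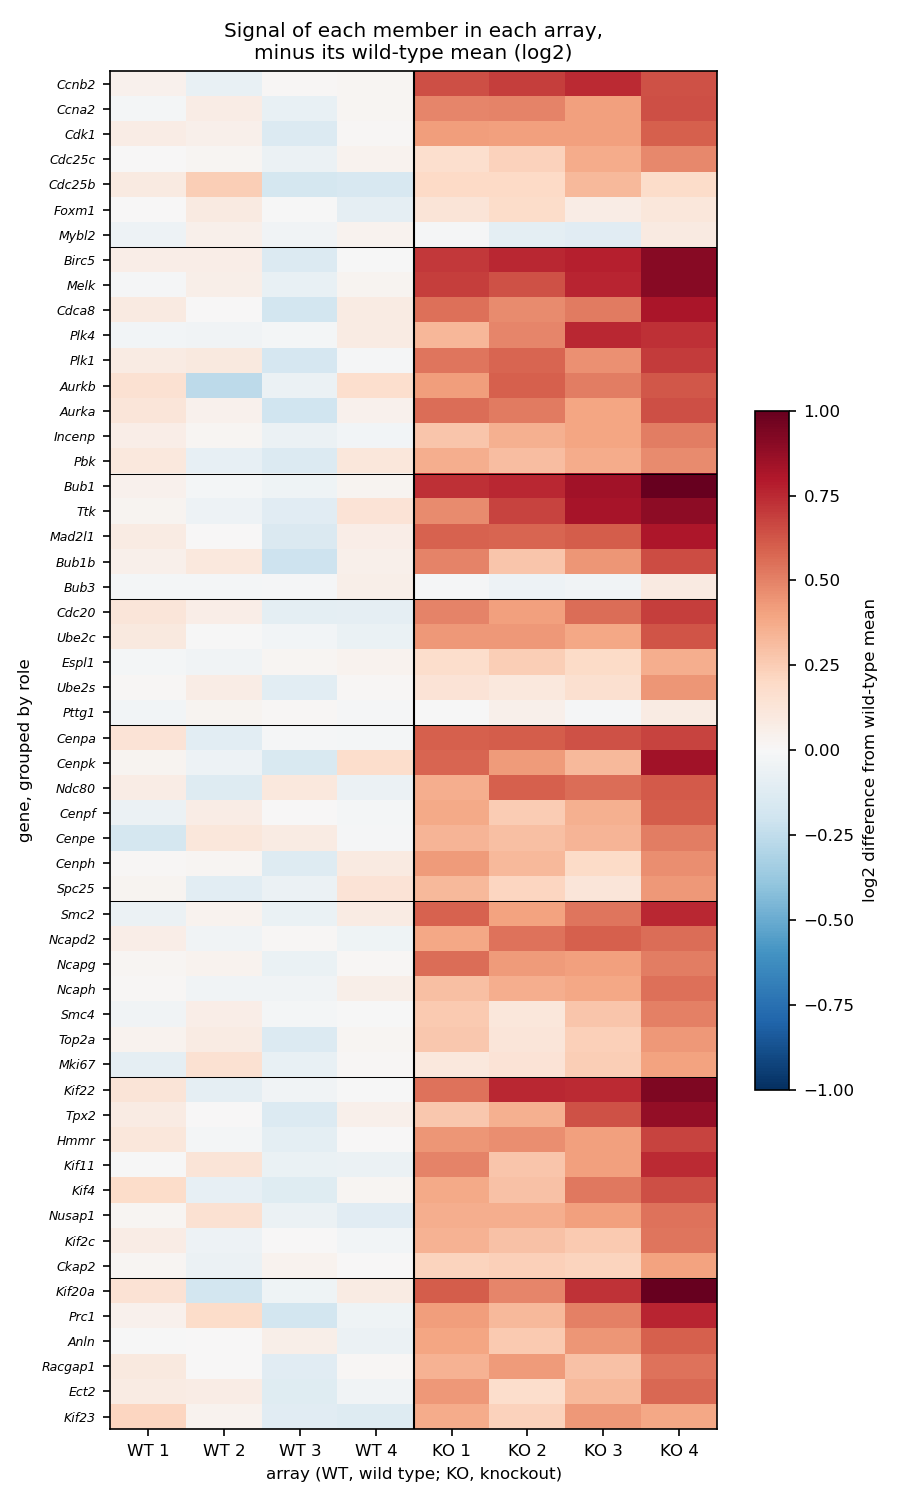
Log2 signal of each of the 54 genes (rows, grouped by role) in each array (columns, wild type 1 to 4 and knockout 1 to 4) minus the gene's wild-type mean, on a colour scale from -1 (blue) to 1 (red). The 4 knockout columns are red for nearly all genes and deepest in knockout 4, and the rows of Bub3, Pttg1 and Mybl2 stay pale.

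Entry into mitosis is driven by CDK1 bound to cyclins A and B, after the CDC25 phosphatases remove inhibitory phosphates from it. Of the 7 measured genes of entry and of its transcription, 4 rose and 3 did not pass. Ccnb2, a B-type cyclin, was at 8.38, 8.26, 8.35 and 8.35 in wild type and at 8.98, 9.02, 9.08 and 8.97 in the knockout. All knockout arrays were above all wild-type arrays, and the rise was 0.68 (SE 0.047, adjusted p = 4.54e-06). Ccna2, the cyclin that acts from replication to early mitosis, was at 8.87, 8.97, 8.81 and 8.91 in wild type and at 9.38, 9.38, 9.30 and 9.53 in the knockout, a rise of 0.51 (SE 0.059, adjusted p = 9.23e-05). Its groups were also apart, by more than the range within either. Cdk1 was at 8.79, 8.76, 8.58 and 8.72 against 9.13, 9.13, 9.12 and 9.31 and rose by 0.46 (SE 0.063, adjusted p = 0.000272), with knockout 4 highest and wild type 3 lowest. Cdc25c rose by 0.31 (SE 0.067) from a low level of 5.23, a call lost without the 3 arrays weakest in the spike-in controls (0.21, adjusted p = 0.0503).

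The other phosphatase and both transcription factors of the list did not pass. Cdc25b was at 6.84, 6.999, 6.58 and 6.59 in wild type and at 6.95, 6.95, 7.08 and 6.94 in the knockout, so that wild type 2 lay within the knockout range. Its difference was 0.23 (95% confidence interval 0.03 to 0.42, adjusted p = 0.0825), and it passed without wild type 2 (0.31, adjusted p = 0.0117) and was at 0.10 (adjusted p = 0.393) with the spike-in controls as a covariate. Foxm1, a forkhead activator of mitotic genes, was at 5.34, 5.42, 5.33 and 5.24 against 5.46, 5.51, 5.40 and 5.44, with knockout 3 below wild type 2. Its difference was 0.12 (interval 0.01 to 0.23, adjusted p = 0.0990), and it passed when its probe sets were averaged (0.16, adjusted p = 0.0150), with quantile normalisation (0.16, adjusted p = 0.0355) and with median centring (0.14, adjusted p = 0.0477). Over all the alternative settings its difference ran from 0.09 to 0.18 and its adjusted p from 0.0150 to 0.297. In another Foxm1 probe set, which may bind transcripts of other genes, all knockout arrays lay above all wild-type arrays, with a difference of 0.25. In the next brightest the groups overlapped (0.18). In the dimmest, under the array-wide median, all knockout arrays were above (0.09). Mybl2, which encodes B-Myb, was the dimmest member, at 4.10, 4.20, 4.12 and 4.19 in wild type and 4.14, 4.05, 4.04 and 4.24 in the knockout. These levels lay below the array-wide median, so this probe set does not show that Mybl2 was expressed. Its difference was -0.04 (interval -0.16 to 0.09, adjusted p = 0.698).

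Polo-like and aurora kinases drive centrosome maturation, spindle assembly and chromosome alignment, and the chromosomal passenger complex, made of Aurora B, INCENP, survivin and borealin, corrects faulty attachments. All 9 genes of this group rose and none of their groups overlapped. Birc5, which encodes survivin, was at 8.79, 8.79, 8.59 and 8.72 in wild type and at 9.43, 9.48, 9.50 and 9.64 in the knockout, a rise of 0.79 (SE 0.063, adjusted p = 9.46e-06). Melk, a mitotic kinase, was at 7.35, 7.43, 7.29 and 7.40 against 8.06, 8.0, 8.13 and 8.28 and rose by 0.75 (SE 0.064, adjusted p = 1.36e-05). For both genes the lowest knockout array was more than 0.5 above the highest wild-type array. Plk1, the main polo-like kinase of mitosis, was at 7.19, 7.20, 6.94 and 7.10 against 7.64, 7.69, 7.56 and 7.81, a rise of 0.57 (SE 0.072, adjusted p = 0.000156). Wild type 3 was again the lowest array and knockout 4 the highest. The partners of survivin rose too, with smaller estimates: Cdca8, which encodes borealin, by 0.59 (SE 0.084), Aurkb by 0.54 (SE 0.092) and Incenp by 0.38 (SE 0.058). Averaged over its probe sets Incenp was at 0.22 (adjusted p = 0.00489). Aurka, the centrosomal aurora kinase, rose by 0.53 (SE 0.076) and Plk4, the kinase that starts centriole duplication, by 0.58 (SE 0.088). The kinase gene Pbk rose by 0.38 (SE 0.067).

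The spindle checkpoint holds the cell before anaphase until every kinetochore is attached. Of its 5 genes, 4 rose, among them the largest rise of the whole set. Bub1, a checkpoint kinase at the kinetochore, was at 6.42, 6.36, 6.33 and 6.41 in wild type and at 7.11, 7.13, 7.22 and 7.42 in the knockout, a rise of 0.84 (SE 0.067, adjusted p = 9.77e-06), or 1.79-fold. The wild-type arrays lay within 0.1 of each other and the knockout arrays far above them. Averaged over its probe sets the rise of Bub1 was 0.47 (adjusted p = 2.70e-05), and it was then not the largest, since Birc5 was at 0.79. Mad2l1, the checkpoint protein that binds CDC20, was at 8.84, 8.76, 8.61 and 8.82 against 9.35, 9.34, 9.36 and 9.56 and rose by 0.64 (SE 0.068, adjusted p = 4.96e-05). Ttk, the kinase that starts checkpoint signalling, was at 5.61, 5.53, 5.47 and 5.72 against 6.05, 6.26, 6.41 and 6.47 and rose by 0.72 (SE 0.090, adjusted p = 0.000149). Neither gene's groups overlapped. Averaged over its probe sets the rise of Ttk was 0.35 (adjusted p = 0.00114). Bub1b rose by 0.46 (SE 0.087). Bub3, the partner of BUB1 and BUBR1, was a bright exception, at 9.92, 9.92, 9.93 and 9.99 in wild type and 9.93, 9.88, 9.90 and 10.03 in the knockout. Its arrays overlapped, and the difference was -0.0025 (SE 0.048, adjusted p = 0.978). Its 95% confidence interval of -0.11 to 0.10 ended below the differences of the other 4 checkpoint genes. Its promoter holds both elements shown above.

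Anaphase begins when the anaphase promoting complex, activated by CDC20 and supplied with ubiquitin by UBE2C and UBE2S, marks securin and cyclin B for destruction and so frees separase to cut cohesin. Of these 5 genes, 3 rose and 2 did not pass. Ube2c was at 9.59, 9.49, 9.47 and 9.43 in wild type and at 9.93, 9.93, 9.88 and 10.12 in the knockout, a rise of 0.47 (SE 0.062, adjusted p = 0.000210). Cdc20 was at 8.31, 8.25, 8.09 and 8.10 against 8.69, 8.60, 8.75 and 8.88 and rose by 0.54 (SE 0.072, adjusted p = 0.000221). Both sets of knockout arrays lay above the wild-type arrays. Espl1, which encodes separase, was at 5.50, 5.48, 5.54 and 5.55 against 5.70, 5.77, 5.71 and 5.88, a smaller but separate rise of 0.24 (SE 0.052, adjusted p = 0.00413). Ube2s was at 9.77, 9.83, 9.65 and 9.77 against 9.89, 9.86, 9.91 and 10.19. Its groups did not overlap, but they were only 0.03 apart at the closest, and the difference of 0.21 (interval 0.05 to 0.38) missed the threshold at an adjusted p of 0.0559. It passed with the trend and robust options of limma (adjusted p = 0.0265), with median centring (0.0399), with the filter on dim genes (0.0460) and without knockout 2 (0.0422). It was smaller when its probe sets were averaged (0.061, adjusted p = 0.296), with cyclic loess normalisation (0.12, adjusted p = 0.220) and without knockout 4 (0.13, adjusted p = 0.0965). Pttg1, which encodes securin, was the brightest member, at 10.36, 10.41, 10.40 and 10.38 in wild type and 10.38, 10.43, 10.38 and 10.47 in the knockout. The groups overlapped, with a difference of 0.03 (interval -0.07 to 0.13, adjusted p = 0.683). The groups of its next brightest probe set overlapped as well, with a difference of 0.15.

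Kinetochores assemble on chromatin that holds the histone variant CENP-A, and the NDC80 complex ties them to microtubules. All 7 measured genes of the centromere and kinetochore rose, and all but Spc25 had groups that did not overlap. Cenpa was at 8.24, 8.004, 8.10 and 8.09 in wild type and at 8.70, 8.71, 8.74 and 8.79 in the knockout, a rise of 0.63 (SE 0.056, adjusted p = 1.77e-05). Ndc80 was at 5.61, 5.41, 5.64 and 5.48 against 5.90, 6.14, 6.10 and 6.15 and rose by 0.53 (SE 0.072, adjusted p = 0.000228). The knockout arrays of Cenpa lay within 0.1 of each other, tighter than its wild-type arrays. Cenpf, a large protein of the outer kinetochore, was at 7.22, 7.35, 7.28 and 7.26 against 7.66, 7.53, 7.63 and 7.88 and rose by 0.40 (SE 0.071, adjusted p = 0.00140), or by 0.22 (adjusted p = 0.00420) when its probe sets were averaged. The kinetochore motor gene Cenpe rose by 0.37 (SE 0.071), and the inner kinetochore genes Cenpk and Cenph by 0.55 (SE 0.11) and 0.35 (SE 0.069), with Cenpk at 0.33 when its probe sets were averaged. Spc25, a partner of NDC80, had the smallest rise, 0.27 (SE 0.075, adjusted p = 0.0174), which was lost without wild type 2 (adjusted p = 0.0531), without wild type 3 (0.0512) and without the 3 arrays weakest in the spike-in controls (0.0703).

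Condensin, built on SMC2 and SMC4, compacts chromosomes, topoisomerase II alpha disentangles them and Ki-67 coats their surface. All 7 genes of chromosome structure rose, with the highest estimates among the condensin subunits. Ncapg was at 5.95, 5.96, 5.86 and 5.94 in wild type and at 6.48, 6.35, 6.34 and 6.44 in the knockout, a rise of 0.48 (SE 0.050, adjusted p = 4.46e-05). Ncapd2 was at 6.78, 6.68, 6.73 and 6.67 against 7.10, 7.26, 7.31 and 7.27 and rose by 0.52 (SE 0.056, adjusted p = 5.43e-05). For these condensin subunits the spread within a genotype was a small part of the difference. Smc2 was at 8.03, 8.12, 8.02 and 8.17 against 8.68, 8.49, 8.62 and 8.84, a rise of 0.57 (SE 0.072, adjusted p = 0.000158), and Ncaph rose by 0.40 (SE 0.059). Smc4 rose by 0.29 (SE 0.074, adjusted p = 0.0116), a call lost without the 3 arrays weakest in the spike-in controls (adjusted p = 0.0582) and with the spike-in controls as a covariate (0.0625).

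Ki-67 and topoisomerase II alpha are common markers of dividing cells, and their genes, described further after their values were seen, had rises among the smallest. Mki67, which encodes Ki-67, was at 9.23, 9.48, 9.25 and 9.34 in wild type and at 9.43, 9.46, 9.57 and 9.73 in the knockout, with wild type 2 above knockouts 1 and 2. Its rise of 0.22 (SE 0.076, adjusted p = 0.0483) was the smallest of the genes called. It was not called on leaving out wild type 1, 3 or 4 or knockout 3 or 4 (adjusted p = 0.0851 to 0.124), nor with quantile (0.0657) or cyclic loess normalisation (0.171), without the 3 arrays (0.0903) or with the spike-in covariate (0.238). Top2a was at 9.01, 9.05, 8.84 and 8.99 against 9.24, 9.09, 9.21 and 9.40, groups that were 0.04 apart at the closest, and rose by 0.27 (SE 0.071, adjusted p = 0.0149). Its call was lost when its probe sets were averaged (0.064, adjusted p = 0.337), with cyclic loess normalisation (0.0537), without the 3 arrays (0.0873) and with the covariate (0.0741). The brightest of the other Top2a probe sets, at a mean of 5.87, differed by -0.04.

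Kinesins slide, bundle and shorten spindle microtubules, and TPX2 and NUSAP1 help to form and stabilise them. All 8 genes of this group rose with groups that did not overlap. Kif22, a motor that pushes chromosome arms to the spindle equator, was at 6.47, 6.26, 6.31 and 6.34 in wild type and at 6.88, 7.10, 7.09 and 7.28 in the knockout, a rise of 0.75 (SE 0.080, adjusted p = 5.43e-05). Hmmr, a spindle pole protein, was at 7.42, 7.29, 7.22 and 7.32 against 7.76, 7.77, 7.73 and 7.99 and rose by 0.50 (SE 0.067, adjusted p = 0.000245). Knockout 4 was highest for both genes. Nusap1 was at 8.01, 8.16, 7.94 and 7.89 against 8.36, 8.36, 8.41 and 8.54, a rise of 0.42 (SE 0.067, adjusted p = 0.000703). Tpx2, the activator of Aurora A, rose by 0.53 (SE 0.12), Kif11, the motor that separates the spindle poles, by 0.48 (SE 0.090), the chromokinesin gene Kif4 by 0.46 (SE 0.086) and the microtubule depolymerase gene Kif2c by 0.36 (SE 0.064). The call of Kif4 was lost without the 3 arrays weakest in the spike-in controls (adjusted p = 0.0544), and Tpx2 was at 0.31 there. Ckap2 rose by 0.27 (SE 0.053).

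After anaphase, PRC1 bundles the central spindle, KIF23 and RACGAP1 form centralspindlin, and ECT2 and anillin organise the contractile ring. All 6 cytokinesis genes rose and none of their groups overlapped. Anln, which encodes anillin, was at 6.83, 6.83, 6.89 and 6.77 in wild type and at 7.22, 7.09, 7.27 and 7.43 in the knockout, a rise of 0.42 (SE 0.068, adjusted p = 0.000697). Racgap1 was at 6.91, 6.82, 6.71 and 6.83 against 7.17, 7.24, 7.11 and 7.36 and rose by 0.40 (SE 0.065, adjusted p = 0.000765). The nearest arrays of the genotypes were 0.21 apart for Anln and 0.19 apart for Racgap1. Averaged over its probe sets the rise of Anln was 0.28 (adjusted p = 0.0192). Kif20a, a motor that carries the passenger complex to the central spindle, was at 6.19, 5.86, 6.00 and 6.13 against 6.65, 6.54, 6.77 and 7.15, a rise of 0.73 (SE 0.12, adjusted p = 0.000865). Knockout 4 was 0.38 above the next array there, and the rise was 0.49 without the 3 arrays weakest in the spike-in controls. Prc1 rose by 0.50 (SE 0.099) and Ect2 by 0.38 (SE 0.082). Kif23 passed with 0.36 (SE 0.079), but its mean levels, 4.08 and 4.44, were under the array-wide median, so this probe set does not show that it was expressed.

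Other probe sets gave a second reading for 30 of the 54 genes. Of their 45 other probe sets, 30 lay at or above the array-wide median in 1 genotype or both, 28 of these had a difference above 0, and in 21 all knockout arrays were above all wild-type arrays. They share the RNA and the array with the first reading and are not independent of it. For 22 of the 54 genes the identifier of the probe set used ends in _a_at, _s_at or _x_at. The endings _s_at and _x_at mark possible binding to transcripts of other genes, Bub3, Pttg1 and Ube2s among them. The ending _a_at, as for Cdc25b, marks several transcripts of the same gene. The level of a gene did not go with its difference (Spearman's rho -0.03 over the 54 genes, which share the arrays). The SD was larger in the knockout than in wild type for 41 of the 54.

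The genes with the promoter elements and those without were both higher. Of the 28 measured genes with both elements 27 rose, with a median difference of 0.47, and the other was Bub3. Of 9 with neither element 6 rose, with a median difference of 0.42, among them Birc5 and Melk. Among 697 measured genes outside the list with both elements 19.5% rose and 10.04% fell, and among 7284 with neither 16.6% rose and 13.8% fell. With CCAAT but no TTTGAA, 18.95% of 4496 rose and 11.9% fell, and with TTTGAA but no CCAAT, 17.6% of 1083 rose and 11.6% fell. The differences between these shares were not tested.

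Further genes of mitosis came from 5 lists of other components. Of 98 measured, 62 rose, 2 fell and 34 did not pass, or 63.3% higher against 17.1% of all genes, with a median difference of 0.26. At an unadjusted p under 0.05, 70 were higher and 2 lower. Of 27 other kinetochore and centromere genes, 17 rose and 0 fell, with the smallest adjusted p for Cenpw (1.06, adjusted p = 5.30e-06) and Cenpp (0.71, adjusted p = 2.09e-05), both of the inner kinetochore. Of 24 other kinesin, spindle and centrosome genes, 17 rose and 0 fell, with the centriole gene Sass6 at 0.60 (adjusted p = 2.56e-05) and the augmin subunit gene Haus1 at 0.55 (adjusted p = 9.43e-05). Of 21 other regulators, 13 rose and 1 fell. Cdca3, a trigger of mitotic entry, rose by 0.85 (adjusted p = 9.20e-07) and Cks2, a small CDK-binding protein, by 0.43 (adjusted p = 6.46e-05), while Pimreg fell by 0.26 at levels under the array-wide median. Of 14 subunits and regulators of the anaphase promoting complex, 10 rose and 0 fell, Anapc15 by 1.02 (adjusted p = 2.58e-05) and Anapc1 by 0.32 (adjusted p = 0.000831). Cohesin genes were mixed: of 12, 5 rose, Cdca5 (sororin) by 0.47 and the shugoshin gene Sgo1 by 0.47 among them, and Pds5b, a cohesin regulator, fell by 0.27 (adjusted p = 0.0175). The TTTGAA letters were in 10 of 23 kinetochore, 11 of 20 kinesin and 6 of 15 regulator promoters of these lists. They were in 3 of 13 anaphase promoting complex and 2 of 8 cohesin promoters. Both elements were in 8, 7, 5, 1 and 1 of them, in the same order. Each TTTGAA share was above the 13.1% of other measured genes, so these letters were not particular to the 56 genes. The differences between these shares were not tested.

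The phases before mitosis were set beside it. Of 34 replication genes, 26 rose and 0 fell, with a median difference of 0.33, among them thymidine kinase Tk1 (0.60, adjusted p = 1.34e-05) and thymidylate synthase Tyms (0.66, adjusted p = 1.73e-05). At an unadjusted p under 0.05, 30 were higher and 0 lower. The TTTGAA letters were in 3 of 28 promoters of these genes, or 10.7%, and the CCAAT letters in 17, or 60.7%. Of 13 cyclins, CDKs and E2F factors of the phase before replication, 1 rose and 0 fell, and 2 were higher and 0 lower at an unadjusted p under 0.05. That gene was Cdk4, with means of 8.48 and 8.80 (0.32, adjusted p = 0.000553), whereas cyclin D1 (Ccnd1) differed by 0.15 (adjusted p = 0.247) and Myc by -0.05 (adjusted p = 0.817). Of 9 genes of the DREAM and MuvB complexes, 2 rose and 1 fell, shares of 22.2% and 11.1% against 17.1% and 12.9% of all genes. They were the MuvB subunits Lin54, at 0.34 (adjusted p = 0.00166), and Lin9, at 0.35 (adjusted p = 0.00313), and E2f5, a repressor E2F, at -0.33 (adjusted p = 0.000455). Of 11 CDK inhibitors and antiproliferative genes, 0 rose and 5 fell, or 45.5% against 12.9% of all genes, and 0 were higher at an unadjusted p under 0.05. Btg1 fell by 0.57 (adjusted p = 1.68e-05) and Cdkn2b, the inhibitor p15, by 0.40 (adjusted p = 0.000371), and Cdkn1a and Cdkn1b, the inhibitors p21 and p27, fell by 0.21 and 0.18. Cdkn2a fell by 0.14, with means of 3.69 and 3.55, under the array-wide median. Whether these lists differ from the mitotic genes was not tested.

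Markers of several other cell types differed between the genotypes. The counts below stand beside 17.1% of all genes that rose and 12.9% that fell. Of 12 measured mature enterocyte markers, 0 rose and 11 fell, with a median difference of -0.49, and their mean per array was 10.04 to 10.26 in wild type and 9.32 to 9.55 in the knockout. All 11 smooth muscle markers fell, with means of 9.24 to 9.63 and 8.52 to 8.77. Knockout 4, the highest array for the mitotic genes, was the lowest for both of these lists. Lymphocyte markers, which could accompany dividing lymphocytes, were lower too. Of 11 T lymphocyte markers 0 rose and 9 fell, with means of 6.62 to 6.80 and 5.43 to 5.68, and of 8 B lymphocyte markers 0 rose and 6 fell, with means of 5.39 to 5.87 and 4.78 to 5.25. For the T and B lymphocyte lists knockout 4 was instead the highest of the knockout arrays. Of 5 germinal centre markers 0 rose and 3 fell, and their means were 5.24 to 5.33 and 5.01 to 5.10. At an unadjusted p under 0.05, 0 of the markers in these 5 lists were higher. Of 8 fibroblast markers 1 rose and 1 fell, or 12.5% each way, shares no higher than those of all genes, with a median difference of 0.01. The list of 7 ileal enterocyte markers, which holds Fabp6, Slc10a2, Vil1, Epcam and Cdh17, had 0 that rose and 3 that fell. Those were Anpep by 0.87, Slc10a2 by 0.45 and Vil1 by 0.24, and the median difference of the list was -0.12. Among the lymphocyte markers, Cd8b1, Zap70, Pax5, Blk, Mef2b and Gcsam were under the array-wide median in both groups. The part of these cells in the rise of the mitotic genes was not tested.

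**Figure D5:**
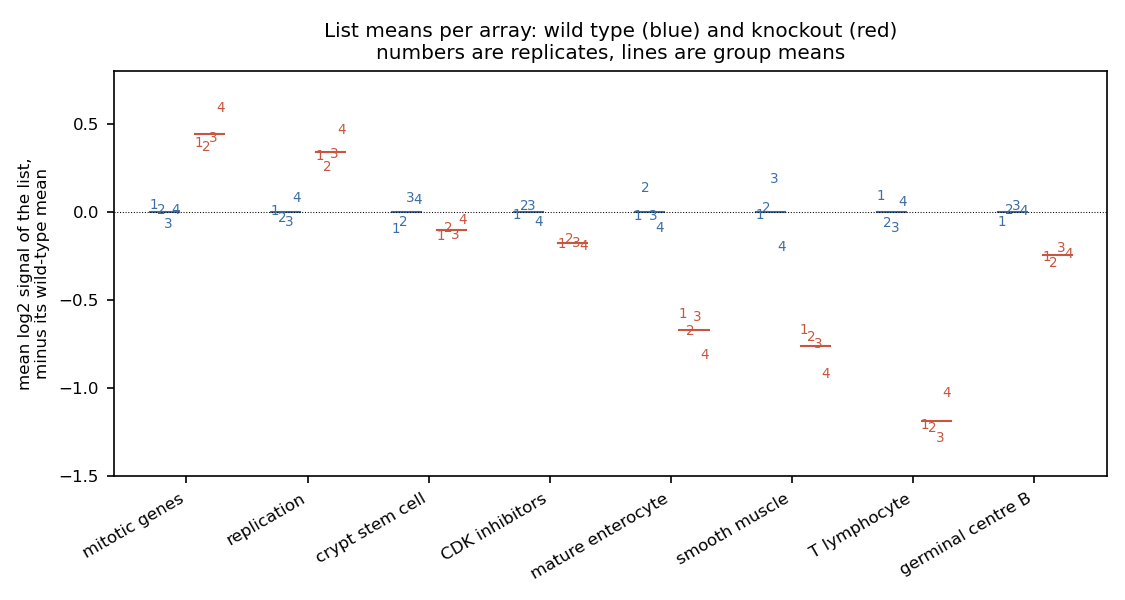
Mean log2 signal of each gene list in each array minus the list's wild-type mean (vertical axis), for wild type (blue) and knockout (red), with the replicate number as the symbol and lines at the group means. The mitotic and replication lists lie above 0 in all 4 knockout arrays, with knockout 4 highest, while the CDK inhibitor, mature enterocyte, smooth muscle, T lymphocyte and germinal centre lists lie below all wild-type arrays.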

How the data were processed

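The values are the authors' log2 signals per probe set after RMA, which the submitters' processing notes name. Which program ran it is not given in the sources used here. The method compresses low signals, so differences of dim genes may be understated, and the values hold no detection calls. Precision is limited by the number of arrays, 4 per genotype, each made from 250 ng of total RNA.

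Of 45141 probe sets, 104 were controls, 28898 had 1 gene symbol, 551 several and 15588 none listed. By Entrez identifier, 28689 took the RefSeq symbol of GRCm38.p6. The knockout was tested against wild type by limma 3.58.1 under R 4.3.3 (lmFit, eBayes, 2-sided, Benjamini-Hochberg over 17097 genes, no filter on dim genes). The members and gene lists were chosen with earlier results of these data known, so counts over them are descriptions. By rule, named members were, per role group, the 3 called with the smallest adjusted p, all members not called, and the brightest and dimmest. Per other list, up to 2 called genes in each direction were named by rule. The text also names genes outside this rule, among them other called members, Ccnd1, Myc, Cdkn1a, Cdkn1b and Cdkn2a. On simulated data for this comparison of 17097 genes, 50 genes were changed at each size, with noise independent between genes. There 32% of genes changed by 0.25 were recovered, 92% at 0.5, 98% at 1 and 100% at 2, with 12 false calls. In the measured data 30.0% of genes were called, a far larger share than was changed in the simulation, so recovery may differ. Results were recomputed without dim genes, after renormalising (by quantiles, medians or cyclic loess), averaging all probe sets of a gene, with trend and robust priors, weighting arrays, blocking on replicate number, dropping single arrays or the 3 weakest in spike-in controls, adjusting for those controls, and at a threshold of 0.01. Figures were drawn with matplotlib 3.10.9.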

Additional observations from a re-analysis of the deposited data

Results flagged for a closer look

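Among the 108 groups of 4 arrays (54 genes in 2 genotypes), 8 held an array far from the other 3 by Dixon's gap test, where chance alone gives about 1 in 20. Knockout 4 was the high array for Cdk1 (9.31), Mad2l1 (9.56), Ube2s (10.19) and Ckap2 (7.66). Knockout 3 was high for Cdc25b (7.08). Wild type 4 was high for Plk4 (6.04) and Bub3 (9.99), and wild type 3 was low for Bub1b (6.59). Cdk1, Mad2l1, Ckap2, Plk4 and Bub1b rose in the comparison of the genotypes, and their groups did not overlap.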

How the results depend on the processing

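Under 18 alternatives at the same threshold, 41 to 50 of the mitotic genes rose and 0 fell, and their median difference was 0.39 to 0.49. Of the 48 that rose, 41 passed in all 18, and Cdc25c, Kif23, Kif4, Mki67, Smc4, Spc25 and Top2a were lost in at least 1. The lowest count, 41, came from leaving out the 3 arrays weakest in the spike-in controls, which has fewer samples, and the median difference was 0.41 there. There Cdc25c (adjusted p = 0.0503) and Kif23 (0.0970) were lost, and Kif23 was also lost when its probe sets were averaged (0.0596). Leaving out 1 array gave 46 to 49 genes and medians of 0.40 to 0.49. Same-numbered samples share only a number by the labels, and their deviations from the genotype means correlated by 0.22, -0.05, 0.11 and 0.16. With the replicate number as a block 48 rose, with a median of 0.46, and 5190 genes were called in all, against 5134. At an adjusted p under 0.01, 44 rose. The 3 genes that changed sign were among the 6 that did not pass. Pttg1 was at -0.017 with quantile and -0.061 with cyclic loess normalisation, and Mybl2 at 0.053 with the mean of its probe sets. Bub3 was at 0.019 with median centring, 0.012 with the mean of its probe sets, 0.0093 with the spike-in covariate and -0.034 to 0.016 on leaving out 1 array. The cause of these shifts was not tested.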

Other observations

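Most crypt stem cell markers had a difference below 0, and 3 of 12 had one above 0. At an unadjusted p under 0.05, 1 was higher and 5 were lower. Of 12 measured, 1 rose, 3 fell and 8 did not pass, shares of 8.33% higher and 25% lower against 17.1% and 12.9% of all genes, with a median difference of -0.08. Lgr5, the receptor that marks the cycling stem cell, changed by -0.31 (adjusted p = 0.0341), the stem cell product Olfm4 by -0.18 (adjusted p = 0.0464) and Rnf43, a Wnt feedback gene, by -0.25 (adjusted p = 0.0273), and Lrig1, a feedback inhibitor of growth factor receptors, rose by 0.24 (adjusted p = 0.00602). Their mean per array was 6.89 to 7.07 in wild type and 6.85 to 6.94 in the knockout, ranges that overlap. Of 7 goblet cell markers, 1 rose and 2 fell, or 14.3% and 28.6% against the same shares of all genes. They were Agr2 at 0.29, Clca1 at -0.40 and Fcgbp at -0.40. Of 4 measured Paneth cell markers 0 passed limma's test, with 0 higher and 2 lower at an unadjusted p under 0.05. Of 8 macrophage markers 0 rose and 3 fell, with 0 higher at an unadjusted p under 0.05.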
